A study of Canis lupus familiaris with 4 samples.

Results

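Mast cell genes were examined in canine mammary ductal carcinoma and in the non-tumor mammary tissue beside it. The genes are CPA3, FCER1A, MS4A2, HPGDS and KIT, chosen by symbol as genes known from mast cells. They were chosen with earlier results of these data known, and all 5 were found among the 11277 genes of the count tables. RNA came from intact (not neutered) female dogs of several breeds, 5 to 14 years old, with spontaneous early-stage tumors removed by mastectomy. It was pooled from 3 dogs per library into 2 carcinoma libraries (T1 and T2) and 2 control libraries (C1 and C2), and same-numbered libraries came from the same dogs (pool 1 and pool 2). No group received a treatment or carried a designed allele, and each value is an average over 3 dogs, so the spread between single dogs is not seen and an n of 2 counts pools. Because the tissue was sequenced whole, fewer mast cells and less RNA per mast cell cannot be told apart.

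Mast cells are resident immune cells of connective tissue that store proteases, heparin and histamine in granules. These stores are released when antigen cross-links IgE held on the high-affinity receptor FcεRI. FCER1A encodes the IgE-binding alpha chain of that receptor and MS4A2 its signal-amplifying beta chain, while the gamma chain is shared with other leukocytes. CPA3 encodes the carboxypeptidase of the granules, HPGDS the synthase that makes prostaglandin D2 in mast cells and some other leukocytes, and KIT the receptor for stem cell factor, on which mast cells depend for survival. KIT is also made by luminal cells of the mammary epithelium, by melanocytes and by interstitial cells of Cajal, so it marks mast cells less strictly than the others.

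Total counts were 32352002 and 4027367 in the controls C1 and C2 and 35496260 and 3236218 in T1 and T2, and the 5 genes together took 5785, 729, 5157 and 487 of these. Pool 2 therefore limits the precision for the rarer members. Levels are counts per 1000000 counts of the library (CPM) after TMM scaling, which corrects for differences in composition between libraries. A count of 0 allows up to 3 counts, or 0.102 CPM in C1, 0.0858 CPM in T1, 0.695 CPM in C2 and 0.892 CPM in T2. A gene is called at an adjusted p under 0.05 and a log2 fold change of at least 1 in size by edgeR's quasi-likelihood test over all genes. The replicates are pools of different dogs, and with 2 against 2 libraries an exact permutation test cannot go below p = 0.333, so each call depends on a model that borrows information from other genes.

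CPA3, MS4A2 and FCER1A, the granule protease gene and the genes of both FcεRI chains that are particular to few cell types, were lower in carcinoma. HPGDS was also lower in both carcinoma libraries but missed the threshold narrowly, and KIT did not pass. In all, 3 of 5 members were called lower, beside 5.24% of all genes. No member was called higher by edgeR, and 0 were higher at an unadjusted p under 0.05 or by DESeq2, beside 4.62% of all genes called higher. For 4 members both carcinoma libraries lay below both controls, which held for 28.0% of all genes. The median log2 fold change was −1.66 for the members and 0.03 for all genes. Because the members were chosen with earlier results of these data known, these shares and medians are descriptions only.

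**Figure D1:**
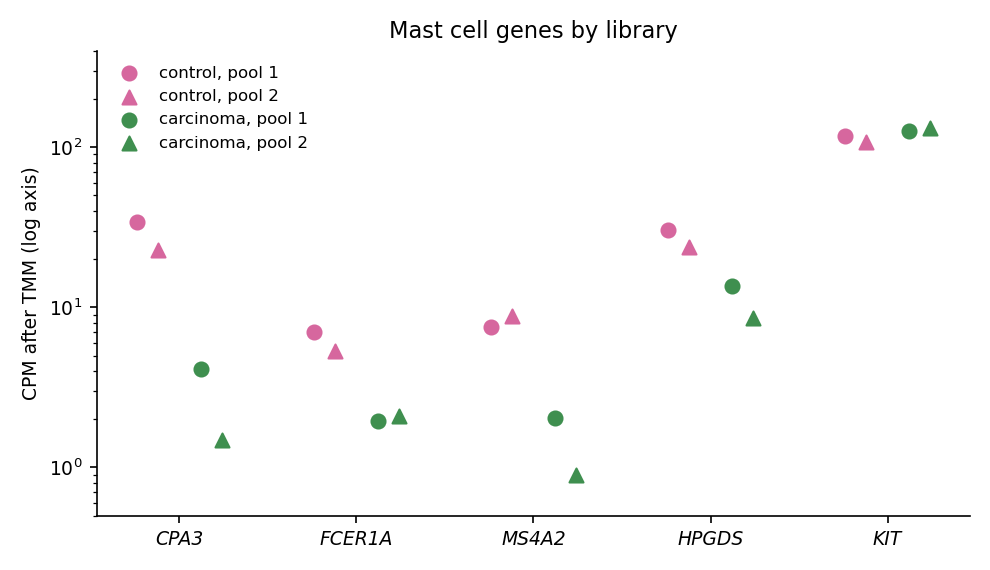
CPM after TMM scaling (log axis) of the 5 mast cell genes, with 1 symbol per library, pink for control and green for carcinoma. Circles mark pool 1, and triangles mark pool 2. CPA3 falls from 34.0 and 22.7 CPM in control to 4.12 and 1.49 CPM in carcinoma, while the KIT symbols lie close together between 108 and 132 CPM.

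CPA3 had the largest difference of the 5. It stood at 34.0 CPM in C1, 22.7 CPM in C2, 4.12 CPM in T1 and 1.49 CPM in T2, from 1004, 98, 144 and 5 counts. Both carcinoma libraries were far below both controls, which averaged 28.4 ± 7.98 CPM (SD, n = 2) against 2.80 ± 1.86 CPM, a 10.1-fold difference of the means. Its log2 fold change was −3.13 (standard error, SE, 0.47, edgeR adjusted p = 0.0153). The call held when any one library was left out, with adjusted p-values up to 0.0393. In the RefSeq annotation 1 other gene overlaps the span of CPA3. Reads of CPA3 and of that gene cannot be told apart if both lie on the same strand or if the counting did not use strand.

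The genes of the IgE receptor chains were rarer. MS4A2 was 7.55 CPM in C1, 8.81 CPM in C2, 2.03 CPM in T1 and 0.892 CPM in T2, the last from 3 counts. The groups did not overlap, averaging 8.18 ± 0.889 CPM (SD, n = 2) over the controls against 1.46 ± 0.806 CPM over the carcinomas, and the log2 fold change was −2.25 (SE 0.41, edgeR adjusted p = 0.0272). Without C1 the adjusted p was 0.0601 and without C2 it was 0.0564, so the call needs both controls.

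FCER1A was 7.01 CPM in C1, 5.33 CPM in C2, 1.95 CPM in T1 and 2.08 CPM in T2, from 207, 23, 68 and 7 counts. The 2 carcinoma libraries were almost level with each other and below both controls. Averages were 6.17 ± 1.19 CPM (SD, n = 2) over the controls against 2.01 ± 0.0962 CPM over the carcinomas, with a log2 fold change of −1.66 (SE 0.33, edgeR adjusted p = 0.0333). This call was the least firm of the 3. It was lost whichever library was left out, with adjusted p-values of 0.176 without C1, 0.0642 without C2, 0.148 without T1 and 0.0989 without T2, and DESeq2 gave an adjusted p of 0.0908.

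HPGDS was 30.5 CPM in C1, 23.9 CPM in C2, 13.5 CPM in T1 and 8.62 CPM in T2. The carcinoma libraries again lay below both controls, by less than for CPA3 or MS4A2. Averages were 27.2 ± 4.69 CPM (SD, n = 2) over the controls against 11.1 ± 3.47 CPM over the carcinomas, and the log2 fold change of −1.26 (SE 0.30, edgeR adjusted p = 0.0560) did not pass. With the pool of dogs as a replicate block it was −1.22 (SE 0.12, edgeR adjusted p = 4.06e-19) and was called, so that 4 members were lower, beside 6.83% of all genes in that fit. The blocked fit has 1 residual degree of freedom, and its block covers dogs and sequencing depth alike. DESeq2 called HPGDS as well (log2 fold change −1.27, adjusted p = 0.0108) and, without FCER1A, also 3 members lower, beside 5.61% of all genes. The length deposited for HPGDS, 42662 bases, was 1.75 times its RefSeq gene span, against ratios of 1.01 to 1.18 for the other members, so the gene model counted was wider than the RefSeq one.

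KIT, the most abundant member in CPM, went the other way by a small margin. It was 117 CPM in C1, 108 CPM in C2, 126 CPM in T1 and 132 CPM in T2, so that both carcinoma libraries were slightly above both controls. Averages were 113 ± 6.07 CPM (SD, n = 2) over the controls against 129 ± 4.11 CPM over the carcinomas, with a log2 fold change of 0.19 (SE 0.11, edgeR adjusted p = 0.318). With the replicate block the log2 fold change was 0.17 (SE 0.07, edgeR adjusted p = 0.0272), still far below the 1 log2 unit that a call needs.

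Each pool gave the same direction for every member. In pool 1, the deeper pair of libraries, the ratio of carcinoma to control was 0.121 for CPA3 (95% interval 0.101 to 0.144), 0.269 for MS4A2 (0.203 to 0.353), 0.278 for FCER1A (0.208 to 0.367) and 0.444 for HPGDS (0.396 to 0.496). In pool 2 it was 0.0655 for CPA3 (0.0208 to 0.158), 0.101 for MS4A2 (0.0200 to 0.319), 0.390 for FCER1A (0.142 to 0.940) and 0.361 for HPGDS (0.231 to 0.550). KIT had ratios of 1.08 (1.03 to 1.13) in pool 1 and 1.22 (1.07 to 1.39) in pool 2. The intervals of the 2 pools overlapped for each gene. They are exact binomial intervals that cover counting error only, not the variation between dogs or libraries.

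**Figure D2:**
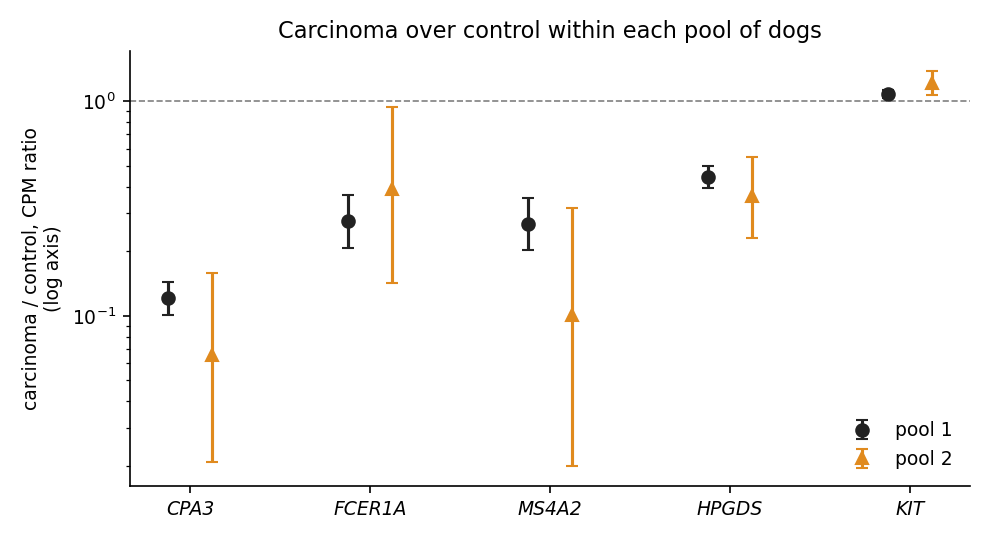
Ratio of carcinoma to control CPM (log axis) within each pool of dogs, with exact 95% counting intervals as bars and a dashed line at a ratio of 1. The CPA3 ratios of 0.121 and 0.0655 lie lowest, the KIT ratios of 1.08 and 1.22 lie just above 1, and the bars of pool 2 are wide because T2 held 5, 7 and 3 counts of CPA3, FCER1A and MS4A2.

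Levels of different genes can be compared only per length, and here the length is the deposited one, which lies near the gene span with introns. How far reads in introns add to the counts was not tested, so comparisons between genes on this scale are approximate. On that scale the controls held 0.958 CPM per kilobase of CPA3, 1.08 of FCER1A and 1.03 of MS4A2, the means of C1 and C2, with 0.637 for HPGDS and 1.34 for KIT. The deposited length of HPGDS is 1.75 times its RefSeq gene span, so its values per kilobase would be higher on that span. Its place among the members in either tissue therefore depends on the length used. The values per kilobase of CPA3, FCER1A and MS4A2 were not separated, since each had a control library inside the range of another. In carcinoma they were 0.0947 CPM per kilobase for CPA3, 0.183 for MS4A2, 0.353 for FCER1A, 0.260 for HPGDS and 1.53 for KIT. By these values CPA3 was the lowest in both carcinoma libraries, at 0.139 CPM per kilobase in T1 and 0.0502 in T2. KIT was the highest on this scale in all 4 libraries.

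The members therefore did not keep their proportions. Ratios between genes of one library do not depend on the scaling, and they are given as log2 ratios of counts with a pseudocount of 0.5. KIT over CPA3 was 1.78 in C1 and 2.25 in C2 but 4.93 in T1 and 6.33 in T2, a difference of 3.62 between the group means. HPGDS over CPA3 was −0.16 in C1 and 0.07 in C2 against 1.71 in T1 and 2.42 in T2, a difference of 2.11. In both ratios the groups did not overlap, and each gave p = 0.333 (exact permutation, two-sided), the smallest possible. FCER1A over CPA3 rested on few counts in T2 and was −2.28 and −2.07 in the controls against −1.08 in T1 and 0.45 in T2.

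PTPRC, which encodes CD45 of all leukocytes, was 251 CPM in C1, 194 CPM in C2, 131 CPM in T1 and 107 CPM in T2. Its log2 fold change of −0.90 (SE 0.18, edgeR adjusted p = 0.0347) was under 1 unit. Set against PTPRC, CPA3 had log2 ratios of −2.88 and −3.09 in C1 and C2 and of −4.98 and −6.03 in T1 and T2. HPGDS had −3.04, −3.02, −3.27 and −3.61 in the same order, a difference of only −0.41 between the group means against −2.52 for CPA3. For MS4A2 the difference was −1.60 and for FCER1A −0.67. CPA3 thus differed more than the leukocyte gene in both pools, and HPGDS differed from it little. Each of these ratios separated the groups, at the smallest possible exact permutation p of 0.333.

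**Figure D3:**
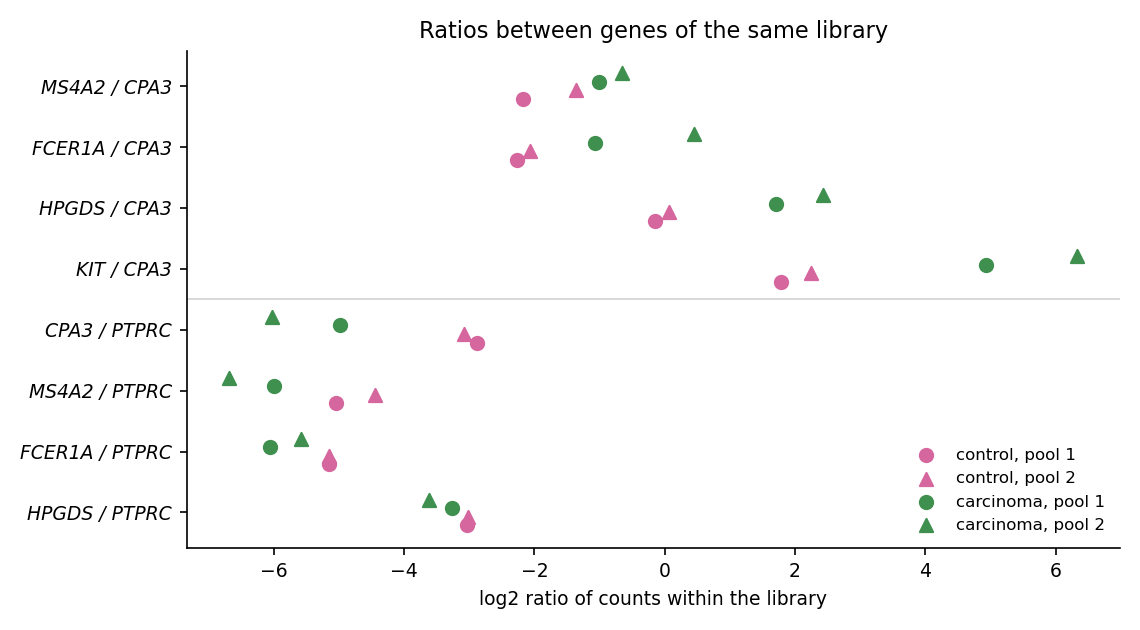
Log2 ratio of counts of gene pairs within each library, with symbols as in the plot of CPM by library. Above the grey line CPA3 is the denominator, and KIT over CPA3 moves from 1.78 and 2.25 in control to 4.93 and 6.33 in carcinoma. Below it PTPRC is the denominator, and HPGDS over PTPRC stays between −3.61 and −3.02.

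The other genes known from mast cells moved in both directions. Of 24 listed, 8 were measured, and the rest, among them the genes of tryptase, chymase and histidine decarboxylase and GATA2, were not analysed here. Of the 8, 2 were lower, 1 was higher and 5 did not pass, with a median log2 fold change of −0.66. For this list and those below, the edgeR shares over all genes were 5.24% lower and 4.62% higher. The share lower was 6.83% with the replicate block and 5.61% by DESeq2. GCSAML, a gene expressed in mast cells and platelets, was 10.9 CPM in C1, 8.11 CPM in C2, 2.15 CPM in T1 and 1.78 CPM in T2, a log2 fold change of −2.24 (SE 0.33, edgeR adjusted p = 0.0147). MITF, a transcription factor that mast cells and melanocytes need, fell by 1.09 (SE 0.17, edgeR adjusted p = 0.0181) on the log2 scale. ENPP3, which encodes a surface enzyme of basophils and mast cells that some epithelia also make, rose by 1.63 (SE 0.22, edgeR adjusted p = 0.0107). IL1RL1, the receptor gene for interleukin 33, had a log2 fold change of 0.95 (SE 0.15, edgeR adjusted p = 0.0161), just under the size a call needs. SRGN, which encodes the granule proteoglycan serglycin, had one of −1.38 (SE 0.49, edgeR adjusted p = 0.143). With the replicate block SRGN was called, at −1.29 (SE 0.13, edgeR adjusted p = 1.93e-17), so that 3 of the 8 were lower. That fit has 1 residual degree of freedom, so its small p-values rest on little replication. SLC18A2, the vesicular monoamine transporter gene, had a log2 fold change of −0.83 (edgeR adjusted p = 0.224).

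Downstream of FcεRI, 22 of 25 listed signaling genes were measured. By edgeR 2 of the 22 were lower, beside 5.24% of all genes, and 20 did not pass. None was higher, against 4 higher at an unadjusted p under 0.05 and 1 by DESeq2, and the median log2 fold change was −0.20. With the replicate block 3 were lower and 1 was higher, GRAP2 (−1.57) and DOK1 (1.36), both adaptor genes, being added. One that fell was FYN, a Src family kinase gene that is also prominent in T cells, with a log2 fold change of −1.53 (SE 0.16, edgeR adjusted p = 0.00591). GAB2, an adaptor gene, and VAV1, an exchange factor gene, had adjusted p-values under 0.05 (edgeR, 0.0227 and 0.0380) with log2 fold changes of −0.67 and 0.94, under 1 unit in size. LYN and SYK, the kinase genes nearest the receptor, had log2 fold changes of 0.18 (edgeR adjusted p = 0.377) and −0.07 (edgeR adjusted p = 0.799).

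KITLG, which encodes stem cell factor, the ligand of KIT, was 300.0 CPM in C1, 249 CPM in C2, 353 CPM in T1 and 291 CPM in T2. The groups overlapped and the log2 fold change was 0.23 (SE 0.16, edgeR adjusted p = 0.402). Among 12 measured genes of KIT signaling, of 14 listed, 1 was higher and 1 lower, with a median log2 fold change of 0.26. PIK3R1, the regulatory subunit gene of phosphoinositide 3-kinase, rose by 1.48 (SE 0.16, edgeR adjusted p = 0.00650). STAT5A, which also acts downstream of the prolactin receptor, fell by 1.26 (SE 0.24, edgeR adjusted p = 0.0287), and STAT5B had a log2 fold change of −0.97 (edgeR adjusted p = 0.0104). PTPN11, a phosphatase gene of the pathway, had one of 0.78 (edgeR adjusted p = 0.0132).

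Of 19 listed growth factors, cytokines and receptors for mast cells, 7 were measured, of which 2 were lower and 5 did not pass. No gene was higher by edgeR, with 0 higher at an unadjusted p under 0.05 and 0 by DESeq2. CCL5 and CXCL12, chemokine genes, fell by 2.29 (SE 0.22, edgeR adjusted p = 0.00481) and 2.02 (SE 0.34, edgeR adjusted p = 0.0210) on the log2 scale. IL33 had a log2 fold change of 0.36 (edgeR adjusted p = 0.301) and IL1RAP, the coreceptor gene of IL1RL1, one of −0.51 (edgeR adjusted p = 0.162). The median of the list was −0.45.

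HPGDS stands in the prostaglandin pathway between the cyclooxygenases and the receptors of prostaglandin D2. Of 25 listed prostaglandin and leukotriene genes, HPGDS not counted, 16 were measured, of which 2 were higher, 3 lower and 11 did not pass, with a median log2 fold change of −0.10. PTGDS, the other prostaglandin D2 synthase, was 5.08 CPM in C1, 12.3 CPM in C2, 0.687 CPM in T1 and 0.892 CPM in T2, the last from 3 counts. It fell by 3.49 (SE 0.61, edgeR adjusted p = 0.0240) on the log2 scale. HPGD, which encodes the enzyme that inactivates prostaglandins, fell by 2.26 (SE 0.37, edgeR adjusted p = 0.0202), and PTGER4, a prostaglandin E2 receptor gene, by 1.31 (SE 0.21, edgeR adjusted p = 0.0174). SLCO2A1, which encodes the transporter that takes prostaglandins up for breakdown, rose from 15.2 CPM in C1 and 18.8 CPM in C2 to 123 CPM in T1 and 145 CPM in T2, a log2 fold change of 3.0 (SE 0.17, edgeR adjusted p = 0.00187). PTGFR, the prostaglandin F2 alpha receptor gene, rose by 1.71 (SE 0.20, edgeR adjusted p = 0.00761).

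PTGS1 and PTGS2, the cyclooxygenase genes, had log2 fold changes of −0.54 (edgeR adjusted p = 0.485) and 0.11 (edgeR adjusted p = 0.850), and PTGDR, a prostaglandin D2 receptor gene, one of 0.28 (edgeR adjusted p = 0.534). ALOX5 and ALOX5AP, the genes of 5-lipoxygenase and its activating protein in the leukotriene branch, had 0.17 (edgeR adjusted p = 0.644) and −0.17 (edgeR adjusted p = 0.704).

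**Figure D4:**
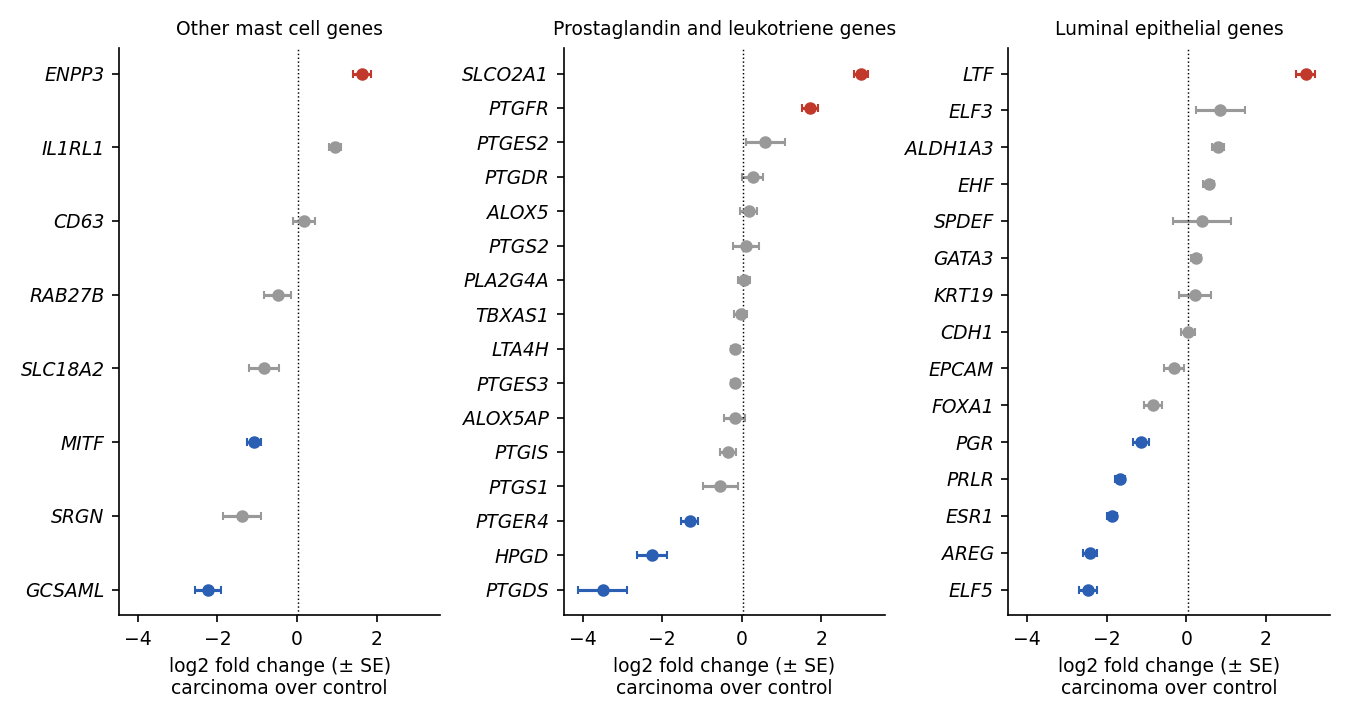
Log2 fold change of carcinoma over control with its standard error for the measured genes of the mast cell list outside the 5 members, of prostaglandin and leukotriene genes and of luminal epithelial genes, with genes called lower in blue, higher in red and not called in grey. The dotted line is the median of all genes, 0.03. SLCO2A1 and LTF lie near 3, PTGDS lies at −3.49, and the epithelial genes KRT19, CDH1 and EPCAM lie at 0.22, 0.04 and −0.32, not called.

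KIT is also a gene of luminal epithelium, so it was set beside 15 measured luminal genes of 20 listed. Of these 5 were lower, 1 was higher and 9 did not pass, with a median log2 fold change of 0.04. EPCAM and CDH1, surface genes of all epithelial cells, and KRT19, a luminal keratin gene, had log2 fold changes of −0.32 (edgeR adjusted p = 0.472), 0.04 (edgeR adjusted p = 0.911) and 0.22 (edgeR adjusted p = 0.762). ELF5, a transcription factor gene of luminal progenitor and alveolar cells, fell by 2.48 (SE 0.23, edgeR adjusted p = 0.00430), ESR1 by 1.87 (SE 0.13, edgeR adjusted p = 0.00259), PRLR by 1.68 (SE 0.13, edgeR adjusted p = 0.00291) and AREG by 2.42 (SE 0.18, edgeR adjusted p = 0.00277). LTF, which encodes lactoferrin, rose by 2.99 (SE 0.24, edgeR adjusted p = 0.00339). ALDH1A3, of the same list of KIT-positive and other luminal genes, went the other way from ELF5. It was 57.7 CPM in C1, 62.1 CPM in C2, 93.5 CPM in T1 and 115 CPM in T2. Its log2 fold change of 0.80 (SE 0.15, edgeR adjusted p = 0.0272) was under the size a call needs. KIT over KRT19 had log2 ratios of −0.52 and −1.44 in C1 and C2 and of −0.55 and −1.41 in T1 and T2, with a difference of −0.01 between the tissue means (exact permutation p = 1). KIT over EPCAM gave −1.11 and −0.52 in C1 and C2 and −0.51 and −0.16 in T1 and T2, a difference of 0.48 with groups that just did not overlap (exact permutation p = 0.333, the smallest possible).

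Melanocytes and interstitial cells of Cajal were the other KIT-expressing cells considered. Of their 9 listed genes 5 were measured, at 149 and 215 CPM summed in control and 143 and 185 CPM in carcinoma. By edgeR 0 were called, against 2 at an unadjusted p under 0.05 (1 higher and 1 lower) and 1 lower, ANO1, both by DESeq2 and with the replicate block, with a median log2 fold change of 0.17. The 4 with the smallest adjusted p were ETV1 (log2 fold change 0.70), ANO1 (−1.16), SOX10 (0.61) and EDNRB (0.15), and TYR, TYRP1 and DCT were not analysed here.

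Genes of other cell types moved beside the mast cell genes. T, NK and B cell genes had a median log2 fold change of −1.37 over the 6 measured of 17 listed. All 6 had both carcinoma libraries below both controls, beside 28.0% of all genes. By edgeR 2 of the 6 were called lower, beside 5.24% of all genes, namely CD8A (−2.07) and CD3E (−1.73). DESeq2 called 1 of them, CD3E, and with the pool as a replicate block 4 were lower, CD3G (−1.76) and CD2 (−1.24) besides. Summed, they stood at 293 and 230 CPM in control and 147 and 122 CPM in carcinoma. PTPRC, a member of the list, made most of that sum, and the other 5 genes stood at 42.5 and 35.7 CPM in control and 16.6 and 14.9 CPM in carcinoma. Endothelial and stromal genes were lower for 8 of 12 measured, of 13 listed (10 with the replicate block, with LUM and COL1A1), with a sum of 6254 and 6783 CPM in control against 2073 and 2533 CPM in carcinoma and a median of −1.44. Among them were DCN (−3.13), CLEC3B (−4.87), PECAM1 (−1.72) and CDH5 (−1.51). Macrophage and dendritic cell genes had 1 of 11 measured, of 20 listed, called lower, the mannose receptor gene MRC1 (−1.03), and a median of −0.46, with sums of 566 and 590 CPM in control and 388 and 434 CPM in carcinoma. Without MRC1 the sums were 310 and 395 CPM in control and 265 and 337 CPM in carcinoma, which overlap. Among the genes that did not pass, log2 fold changes ran from −0.77 for AIF1 and −0.65 for CD163 over −0.13 for CSF1R and 0.05 for MSR1 to 0.32 for C1QC.

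Of 13 listed basophil, eosinophil and neutrophil genes 3 were measured, and all 3 rose. They were S100A8 (3.73), S100A9 (3.27) and S100A12 (4.13), calgranulin genes of neutrophils and monocytes, of which S100A8 and S100A9 are also made by inflamed epithelium, and their sum went from 9.75 and 9.27 CPM in control to 115 and 109 CPM in carcinoma. S100A12 had only 35 counts in C1 and 1 count in C2 (0.232 CPM), so the size of its rise is uncertain. None of the measured genes in these lists was at 0 counts in a library, and few genes of the tables were. The part of these other cell types in the values of FCER1A, HPGDS and KIT, which they can also express, was not tested.

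The genes whose pattern over the 4 libraries lay nearest to that of CPA3 were LRRC7, C1QTNF7, ASXL3, HHIP and FGF10, by the Euclidean distance of centered log2 CPM among 9610 genes with a symbol and at least 5 CPM on average. The distances ran from 0.255 for LRRC7 to 0.488 for FGF10, against 1.11 for MS4A2, 2.16 for FCER1A, 2.19 for HPGDS and 3.78 for KIT. FGF10, a growth factor gene of mammary stroma, stood at 98.9 CPM in C1, 69.8 CPM in C2, 10.4 CPM in T1 and 6.25 CPM in T2, while the other 4 had 2 or 3 counts in T2. For KIT the nearest were C6orf89, PAPD5, KIF23, PPP6R3 and SPPL3, at distances of 0.0187 to 0.0349, and each of them had a log2 fold change between 0.18 and 0.22. Among the members, FCER1A and HPGDS were nearest to each other, at 0.574. Over 4 libraries many genes share a pattern, so these distances are descriptions.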

How the data were processed

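Total RNA of 4 pooled libraries was sequenced by the authors with a stranded kit. The deposited files hold raw counts per gene, as whole numbers, and a gene length. The paper's methods name TopHat2 and HTSeq, whereas the submitters' processing notes list STAR and featureCounts. Neither the genome build nor the strand setting is given in the sources used here.

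Under R 4.3.3, edgeR 4.0.16 was run on the counts (filterByExpr, which kept all 11277 genes and all 5 members, TMM, quasi-likelihood test, Benjamini-Hochberg adjustment over all genes, prior count of 2 for log2 CPM). DESeq2 1.42.0 was an alternative, and figures used matplotlib 3.10.9. The main comparison had no block. Standard errors were taken as the size of the log2 fold change over the root of F. The fits were tested on simulated counts that held no effect shared by same-numbered libraries, so the test did not cover that feature of the data. Same-numbered libraries share dogs, by the paper's account of the pools, and after removal of group means they correlated at 0.782 over the genes, so the pool as a replicate block was an alternative. The others were the scaling, the filter on low counts, the pseudocount and leaving out each library. Spans and neighbors came from the RefSeq table of assembly UU_Cfam_GSD_1.0.

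The members and the 11 other gene lists were chosen with earlier results of these data known. Named genes were the members, the 5 nearest patterns to CPA3 and to KIT, up to 4 genes per list with the smallest adjusted p, and a fixed set of pathway genes. LYN, SYK, SLC18A2, CDH1, EPCAM, KRT19, ALDH1A3, PTGDR, GRAP2, DOK1, CD2, LUM, COL1A1, CSF1R, MSR1 and C1QC, the sums without PTPRC or MRC1, and the ratios to PTPRC, KRT19 and EPCAM and of FCER1A to CPA3, were added after the files were opened. The values of 1 gene of these lists are not reported here.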

Additional observations from a re-analysis of the deposited data

How the results depend on the processing

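Scaling by DESeq2's size factors or by total count changed no call of the 5 mast cell genes, and no alternative turned a direction. Leaving out the filter gave the same fit as the main one, because the filter had removed no gene. DESeq2 called HPGDS (−1.27) but not FCER1A (−1.66). With the replicate block HPGDS was called (−1.22), and no other call of a member changed. That fit called 800 genes higher in carcinoma, against 521 without the block. Asking for 10 counts in every library removed CPA3, FCER1A and MS4A2, because T2 held too few counts of them, so 0 members were called lower. Leaving out 1 library at a time, log2 fold changes ran from −4.30 to −2.80 for CPA3, −3.21 to −1.99 for MS4A2, −1.82 to −1.47 for FCER1A, −1.71 to −1.02 for HPGDS and 0.14 to 0.20 for KIT. In these fits 1 to 2 members were called lower, and 342 to 509 genes were called higher in carcinoma. The lone library of a tissue is then assumed to vary like the others. Pseudocounts of 0 and 2 moved the KIT to CPA3 difference to 3.68 and 3.45 and the HPGDS to CPA3 difference to 2.17 and 1.97. Depth in C2 and T2 limits CPA3, FCER1A and MS4A2 most.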
